A study of Mus musculus with 20 samples.

Results

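The genes described here are the nuclear-encoded genes of oxidative phosphorylation (OXPHOS) that lie on autosomes. They were chosen by symbol alone, as every autosomal locus whose symbol begins with Ndufa, Ndufb, Ndufc, Ndufs, Ndufv, Uqcr, Cox4 to Cox8 or Atp5, together with Sdha, Sdhb, Sdhc and Sdhd. This gave 89 of the 25444 loci in the deposited tables, and 82 of them passed the filter on low counts. Another 3 subunit genes that fit the symbols, Ndufa1, Ndufb11 and Cox7b, are X-linked and were left out. The livers came from 20 mice at 20 weeks of age. There were 5 females and 5 males of C57BL/6N (B6), and 5 females and 5 males of C3H/HeN (C3). The labels name no transgene and no treatment. Total RNA from the left lateral lobe was depleted of ribosomal RNA, made into stranded libraries and sequenced in 3 pools, to which libraries had been distributed at random. Females and males were housed in different rooms, so a sex difference here cannot be told apart from a room difference.

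Oxidative phosphorylation is the last stage of respiration, in the inner mitochondrial membrane. Complex I (NADH dehydrogenase, the Nduf genes) and complex II (succinate dehydrogenase, the Sdh genes) pass electrons to ubiquinone. Complex III (the Uqcr genes) hands them to cytochrome c, complex IV (cytochrome c oxidase, the Cox genes) gives them to oxygen, and complex V (ATP synthase, the Atp5 genes) uses the proton gradient to make ATP. Most subunits are encoded in the nucleus and the remainder in mitochondrial DNA. The Ndufaf genes are not subunits but encode factors that help to assemble complex I. In liver this machinery supplies ATP for gluconeogenesis, urea synthesis and other work of the hepatocyte.

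Counts totalled between 27370921 and 46835745 per library. The OXPHOS genes took between 0.810% and 1.17% of the counts of a library. Hepatocyte markers, among them Alb and Ttr, had a summed level between 79898 and 174213 TPM (transcripts scaled for gene length and library size) in every library, and 7 markers of muscle and brown fat summed to at most 4.71 TPM. Replicates were compared by a chi-square over the OXPHOS counts divided by its degrees of freedom, where 1 stands for counting error alone. It lay from 4.37 to 13.4 for the 8 pairs of replicates that shared a pool and from 23.5 to 387 for the 32 pairs that did not, so pool was kept as a term in every main test. All p-values are from edgeR's quasi-likelihood test and are adjusted over the 13704 genes tested. The study's thresholds (adjusted p under 0.001 and a log2 fold change over 0.5 in either direction) were used to call a gene, and members at an adjusted p under 0.05 are counted beside them.

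Of the 7 members that were not tested, 6 encode isoforms of complex IV known from tissues other than liver. Cox4i2 had at most 7 counts in any library, Cox6b2 at most 7, Cox8b at most 4 and Cox6a2 at most 2. Cox7b2 and Cox8c had 0 counts in all 20 libraries. The 7th, Ndufs5, which encodes an accessory subunit of complex I, also had 0 counts in all libraries. Its locus (mm9 chr4:123389953-123395429, minus strand) shares that strand with the locus BC002163. Pairs that overlapped more than 1 gene had not been counted. A copy of the Ndufs5 transcript (99.5% identity over 437 of 680 bases) also lies elsewhere in mm9, and pairs with several alignments were not counted. The 0 therefore cannot be read as a lack of expression. The part of the overlap and of the copy in the 0 was not tested. Same-strand overlaps were found for 3 members, and counts of such genes are uncertain. The liver forms were abundant. Cox4i1, the common form of the complex IV core-associated subunit 4, had a median of 529.9 TPM over the 20 libraries, Cox6b1 had 712 TPM and Cox8a had 480.0 TPM.

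Levels ranged widely within each complex on the TPM scale, which allows for gene length. In complex I the median TPM ran from 19.3 for Ndufa11 to 514 for Ndufb9, a membrane-arm accessory subunit. The assembly factors were lower, from 2.65 TPM for Ndufaf5 to 41.7 TPM for Ndufaf1. In complex II the highest was Sdha, the flavoprotein that oxidises succinate, at 381 TPM, and the lowest was Sdhc, a membrane anchor, at 178 TPM. Complex III spanned 137 TPM for the Rieske iron-sulfur protein gene Uqcrfs1 to 919 TPM for Uqcrb. The catalytic beta subunit gene of complex V, Atp5b, had a median of 1273 TPM and was above every other tested member. Of the 3 genes for the c-ring subunit, which have different leader peptides but the same mature protein, Atp5g3 stood at 449 TPM, Atp5g1 at 268 TPM and Atp5g2 at 97 TPM. Copies of the Atp5g1 transcript (99.3% identity) and of the Atp5g2 transcript (100% identity) lie elsewhere in mm9. Pairs with several alignments were not counted, so the levels of Atp5g1 and Atp5g2 are uncertain.

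**Figure D1:**
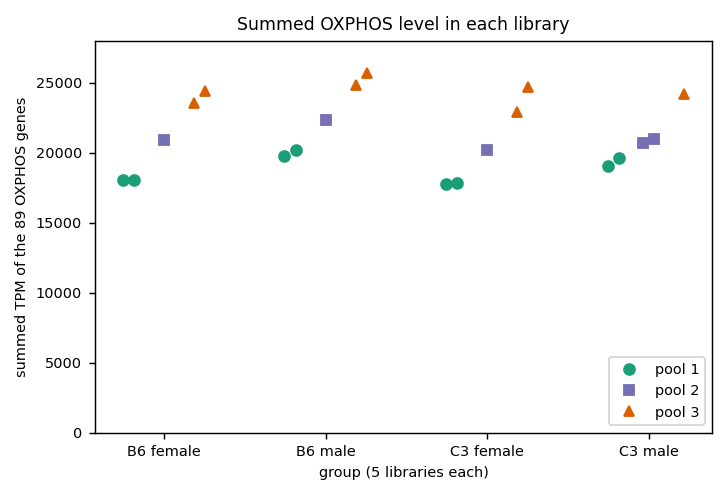
Summed TPM of the 89 OXPHOS genes (y axis) in each library of the 4 groups (x axis), with colour and shape for the sequencing pool and 1 point per mouse. Pool 3 libraries lie between 22920 and 25726, above pool 1 libraries at 17788 to 20223, and within each pool of B6 the females lie below the males.

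The summed level of the OXPHOS genes differed by pool and, within pools, by sex, as the plot of summed TPM shows. In pool 1 the 2 B6 females had 18064 and 18069 TPM and the 2 B6 males had 19773 and 20223 TPM. In pool 2 there was 1 B6 mouse of each sex, with 20882 TPM in the female and 22350 TPM in the male. In pool 3 the B6 females had 23558 and 24396 TPM and the males had 24854 and 25726 TPM. C3 females were below C3 males in pool 1 (17788 and 17813 against 19076 and 19603 TPM) and in pool 2 (20197 against 20671 and 20991 TPM). In pool 3 the 2 C3 females, at 22920 and 24710 TPM, lay on either side of the single C3 male, at 24186 TPM.

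Expression of the OXPHOS genes was compared between females and males of each strain. In B6, 63 of the 82 tested members were lower in females at an adjusted p under 0.05 and 2 were higher. Of all 13704 genes tested, 18.4% were lower in B6 females by the same rule and 16.2% were higher. The median log2 difference (female minus male) was -0.22 over the members and 0.00 over all genes. Differences were small beside the study's thresholds, and the single member called was Ndufaf4, lower in females, where 6.34% of all genes were called in either direction. In C3, 48 members were lower in females and 3 were higher at an adjusted p under 0.05, against 19.9% and 20.1% of all genes. The median of the members was -0.17, against 0.01 over all genes. The members called in C3 were Ndufaf4 and Cox7a2, both lower in females, and 6.9% of all genes were called.

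Both strains, which share no libraries, gave similar counts. Of the 82 members, 48 were lower in females of both strains at an adjusted p under 0.05, 2 were higher in both, and none went in opposite directions. Of all genes, 11.3% were lower in both. Across genes, which are not independent replicates, the Pearson correlation of the sex difference between the strains was 0.83 for the members. It was 0.81 for all genes. Signs and sizes were counted for the members alone. The estimated difference had the same sign in both strains for 79 members. It was larger in B6 than in C3 for 60 of the 82 members, but the sex-by-strain interaction, which tests the change of the sex difference between strains, reached an adjusted p under 0.05 for 0 members by edgeR and 0 by DESeq2, where 2.96% of all genes did by edgeR. At an unadjusted p under 0.05 there were 4 members, against 2203 of all 13704 genes.

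**Figure D2:**
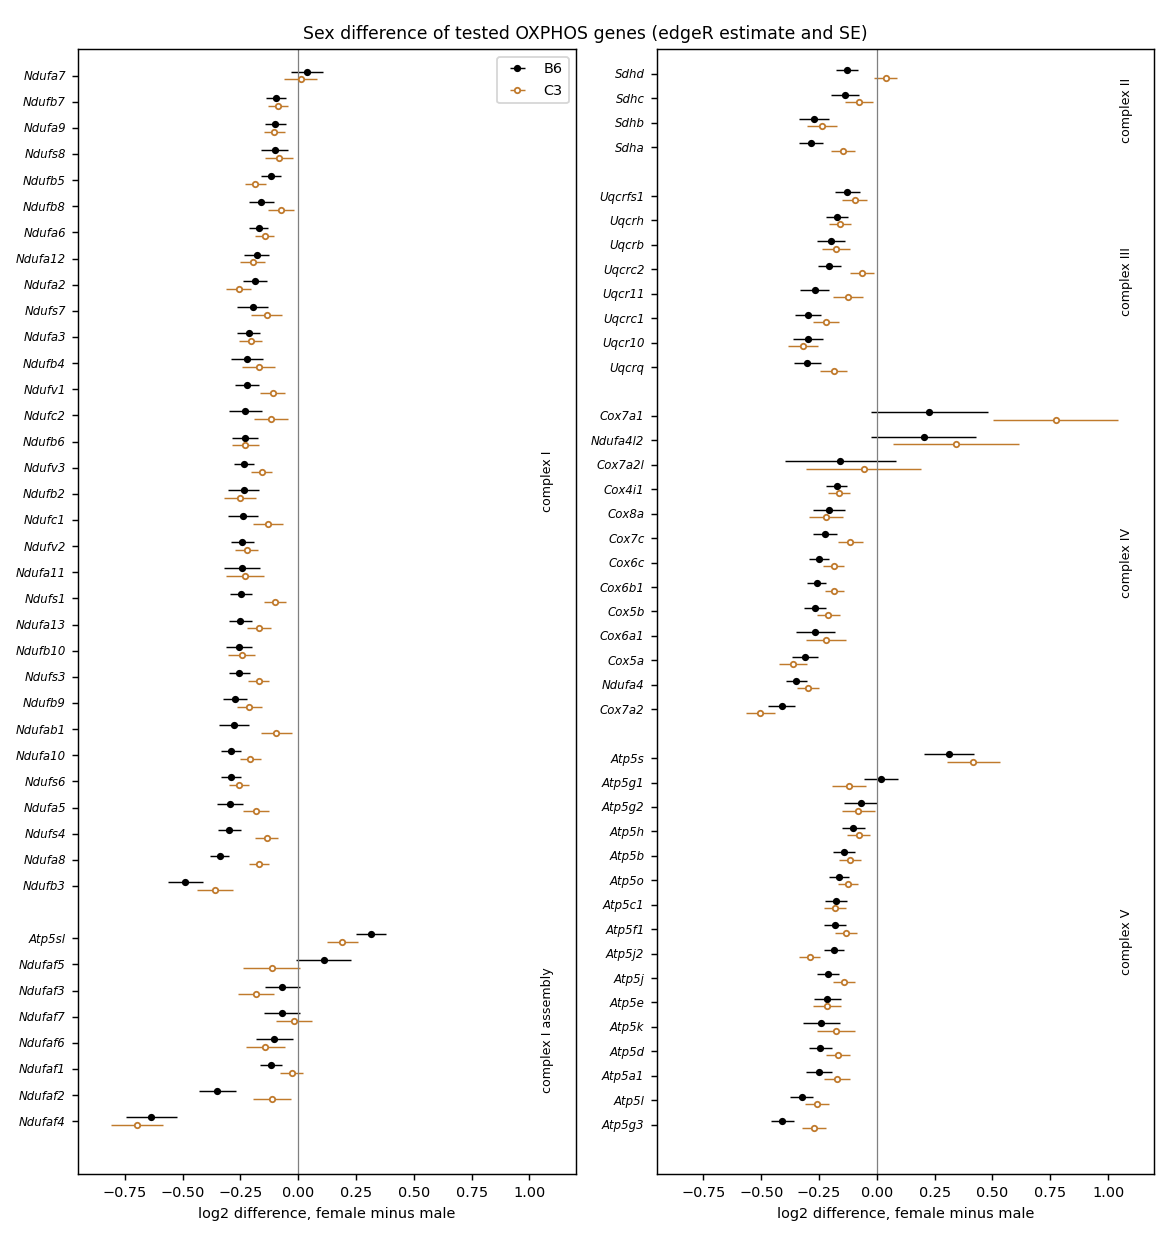
Log2 difference between females and males (x axis, edgeR estimate with its SE as a bar) for tested OXPHOS genes (y axis), grouped by complex, in B6 (filled) and C3 (open). Most points of both strains lie below 0, and Ndufaf4 (-0.63 and -0.70) and Cox7a2 (-0.41 and -0.50) are among the lowest while Atp5s, Atp5sl and Cox7a1 lie above 0.

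The lower level in females was also seen within pools. In B6, 72 of the 82 members had a lower mean log2 CPM (counts scaled for library size) in females in each of the 3 pools, as did 32.5% of all genes. In C3 the count was 63, against 31.7% of all genes, and 62 members were lower in all 3 pools of both strains, against 21.5% of all genes. The within-pool medians of the log2 difference were -0.26, -0.16 and -0.20 in pools 1, 2 and 3 of B6. In C3 they were -0.19, -0.14 and -0.18. The difference between the sexes in pool 3 was tested against that in pools 1 and 2, a test added after the data were seen. By edgeR 0 members had an adjusted p under 0.05, as did 0.0% of all genes. At an unadjusted p under 0.05 there was 1 member, against 364 of all 13704 genes.

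Most complex I subunits were lower in females. In B6, 29 of the 33 tested were lower at an adjusted p under 0.05, with a median log2 difference of -0.23, and in C3 the count was 21 with a median of -0.17. In B6 the core subunits Ndufs1 and Ndufv1 (the latter binds NADH) had log2 differences of -0.25 ± 0.05 and -0.22 ± 0.05 (SE). The largest difference belonged to Ndufb3, an accessory subunit of the membrane arm. Its CPM was 32.6, 33.1, 37.9, 44.6 and 52.0 in B6 females and 38.8, 44.7, 62.7, 66.9 and 71.0 in B6 males. The ranges overlapped, and the lowest values of both sexes were those of pool 3. The difference in Ndufb3 was -0.49 ± 0.08 in B6 (adjusted p = 9.92e-05), just short of the study's fold limit. In C3 it was -0.36 ± 0.08 (adjusted p = 0.00163), short of both the fold limit and the limit on adjusted p. Ndufa8, a subunit of the membrane arm, had -0.34 in B6 and -0.17 in C3, and Ndufs6, a subunit of the peripheral arm, had -0.29 and -0.26. Ndufa7, named after its values were seen, stood apart with log2 differences of 0.04 in B6 and 0.01 in C3.

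Among the assembly factors, Ndufaf4 (mm9 chr4:24825230-24832148, plus strand) had the furthest decrease in females of any tested member in both strains. Its protein is needed early in the building of complex I. In B6 females the CPM of Ndufaf4 was 13.6, 17.1, 19.5, 23.0 and 23.6, and in B6 males it was 26.2, 28.3, 28.4, 32.4 and 33.6. Every B6 female was below every B6 male. In C3 females Ndufaf4 stood at 16.5, 18.1, 19.9, 20.6 and 27.4 CPM and in C3 males at 25.1, 28.7, 30.5, 35.0 and 37.5 CPM. These ranges overlapped by 1 female of pool 3, which was above 1 male of pool 2. The log2 difference was -0.63 ± 0.11 in B6 (adjusted p = 0.000262) and -0.70 ± 0.11 in C3 (adjusted p = 0.000134). Its level in females thus fell by 35.6% in B6 and by 38.3% in C3. In the single pools the B6 difference was between -0.95 and -0.52 and the C3 difference between -0.75 and -0.69. In B6 the adjusted p rose just above 0.001 when B6 female 1, B6 female 4, B6 male 1 or B6 male 5 was left out (0.00116, 0.00113, 0.00122 and 0.00119). By limma on log2(TPM + 1) the B6 difference was -0.49, with an adjusted p of 0.002. In pools 1 and 2 alone the difference was -0.70 in B6 (adjusted p = 0.00217) and -0.72 in C3 (adjusted p = 0.00121).

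The other assembly factors did not move together. Ndufaf2 was lower in B6 females (-0.35 ± 0.08, adjusted p = 0.0027) and had a difference of -0.11 ± 0.08 in C3 (adjusted p = 0.29). Ndufaf1, Ndufaf3, Ndufaf5, Ndufaf6 and Ndufaf7 had log2 differences between -0.18 and 0.11 in the 2 strains, none with an adjusted p under 0.05. Atp5sl, named for its likeness to an ATP synthase gene but known as a complex I assembly protein, was higher in females, by 0.32 ± 0.07 in B6 (adjusted p = 0.00116) and 0.19 ± 0.07 in C3 (adjusted p = 0.0283).

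All 4 complex II genes were lower in B6 females by estimate, and 3 of them, Sdha, Sdhb and Sdhd, at an adjusted p under 0.05. The CPM of Sdha was 454, 473, 494, 518 and 543 in B6 females and 594, 596, 606, 610 and 615 in B6 males, with no overlap. The log2 difference of Sdha was -0.28 ± 0.05 (adjusted p = 0.000322) in B6 and -0.14 ± 0.05 (adjusted p = 0.0321) in C3. Sdhb, the iron-sulfur subunit, gave -0.27 in B6 and -0.24 in C3. Sdhd, the second membrane anchor, had a difference of -0.13 in B6 and 0.04 in C3. In complex III, 7 of 8 genes were lower in B6 females and 5 in C3 females. Uqcrc1, a core protein, was at 173, 176, 181, 202 and 203 CPM in B6 females and at 215, 223, 226, 238 and 247 CPM in B6 males, which did not overlap. Uqcr10, a small subunit, was lower by similar amounts in both strains (-0.30 and -0.32). Uqcrfs1 missed the threshold in both (adjusted p = 0.068 and 0.16).

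In complex IV, 10 of the 13 tested genes were lower in B6 females and 9 in C3 females. Cox7a2 (mm9 chr9:79603048-79607660, minus strand), which encodes the form of subunit 7a used in liver, fell furthest. In C3 females its CPM was 51.6, 58.9, 59.7, 91.7 and 102, and in C3 males it was 71.3, 82.1, 85.4, 92.1 and 137. The 2 highest female values came from pool 3, and within pools the log2 difference lay between -0.57 and -0.47. The fitted difference of Cox7a2 was -0.50 ± 0.06 in C3 (adjusted p = 5.86e-06) and -0.41 ± 0.06 in B6 (adjusted p = 4.36e-05). The C3 value sat at the fold limit, and it moved to between -0.49 and -0.47 when C3 female 1, 3 or 5 or C3 male 1 or 3 was left out, which ended the call though not the adjusted p. Ndufa4, once counted with complex I and now placed in complex IV, had -0.35 ± 0.05 in B6 (adjusted p = 2.05e-05) and -0.30 ± 0.05 in C3 (adjusted p = 0.000137). Cox5a and Cox5b, the 2 subunits next to the mitochondrially encoded core, were lower in both strains, Cox5a by -0.31 and -0.36 and Cox5b by -0.27 and -0.21.

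The muscle form Cox7a1 went the other way in C3. It had few counts, 14 to 33 in C3 females and 7 to 17 in C3 males. Its CPM was 0.448, 0.463, 0.661, 0.731 and 0.751 in C3 females and 0.250, 0.259, 0.390, 0.404 and 0.464 in C3 males. The difference was 0.77 ± 0.27 (adjusted p = 0.0295), and in B6 it was 0.23 ± 0.25 (adjusted p = 0.51). The difference between the strains was not past the threshold (interaction adjusted p = 0.51).

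Complex V showed 12 of 16 genes lower in B6 females and 10 in C3 females at an adjusted p under 0.05. Of the c-ring genes, only Atp5g3 was lower at that threshold. In B6 its CPM was 112, 118, 141, 182 and 204 in females and 153, 163, 181, 251 and 254 in males, with each pool's females below its males. The log2 difference of Atp5g3 was -0.41 ± 0.05 in B6 (adjusted p = 7.99e-06) and -0.27 ± 0.05 in C3 (adjusted p = 0.000601). For Atp5g1 it was 0.02 ± 0.07 in B6 and -0.12 ± 0.07 in C3, and for Atp5g2 it was -0.07 and -0.08, neither past the threshold. The F1 head genes Atp5a1, Atp5b and Atp5c1 had differences of -0.25, -0.14 and -0.18 in B6. Atp5s, which encodes a small coupling factor, was higher in females. It stood at 3.57, 3.66, 3.94, 4.80 and 5.01 CPM in B6 females and at 2.54, 2.91, 3.01, 4.14 and 4.39 CPM in B6 males, a difference of 0.31 ± 0.11 (adjusted p = 0.0334). In C3 the difference was 0.42 ± 0.12 (adjusted p = 0.00865).

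The groups of 5 overlapped for most members. In B6, 7 members had no overlap between females and males (10.9% of all genes had none), and in C3 there were 6 (13.1% of all genes). Atp5c1, Cox5b and Ndufa6 were among them in both strains.

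Genes that work beside the complexes were counted by list, at an adjusted p under 0.05. By that rule 18.4% of all genes were lower in B6 females and 16.2% higher. In C3 females 19.9% of all genes were lower and 20.1% higher. Of 18 genes for electron carriers and feeders, 8 were lower in B6 females and 2 higher, and 4 were lower and 2 higher in C3. Cycs, the somatic cytochrome c that carries electrons from complex III to complex IV, had a log2 difference of -0.57 in B6 and -0.53 in C3. Of 34 assembly factors outside the symbol rule, 15 were lower in B6 females and 13 in C3 females, with 3 and 2 higher. Of 77 mitochondrial ribosomal protein genes, which serve the translation of the mitochondrially encoded subunits, 37 were lower in B6 females and 36 in C3 females. Of 14 citric acid cycle genes, 9 were lower in B6 females and 4 in C3 females. Cytosolic ribosomal protein genes showed 5 of 83 lower in B6 and 10 in C3.

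Of 13 regulators of mitochondrial biogenesis, 1 was lower in B6 females at an adjusted p under 0.05 and 0 in C3 females by edgeR. By the same rule 2 were higher in B6 females and 4 in C3 females. At an unadjusted p under 0.05, 5 of the 13 differed either way in C3, against 6720 of all 13704 genes. Of all genes, 18.4% were lower and 16.2% higher in B6 females and 19.9% and 20.1% in C3 females. Ppargc1a, a coactivator of mitochondrial and gluconeogenic genes, was higher in females, with a log2 difference of 0.72 in B6 (adjusted p = 0.004) and 0.71 in C3 (adjusted p = 0.004). Its relative Ppargc1b gave 0.59 and 0.52. Nrf1, a factor known to bind the promoters of many subunit genes, had differences of -0.02 and 0.05.

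Markers of other liver cells moved with sex as well. Kupffer cell markers were at a summed 345 to 474 TPM in B6 females and 207 to 325 TPM in B6 males, with 5 of 6 higher at an adjusted p under 0.05, and in C3 the sums were 239 to 358 and 148 to 223 TPM. Endothelial markers summed to 294 to 362 TPM in B6 females against 229 to 259 TPM in B6 males, and stellate cell markers to 334 to 398 TPM against 249 to 286 TPM. None of these markers was at 0. Of the 6 hepatocyte markers, 2 were lower and 1 higher in B6 females, with a median log2 difference of -0.14, while their summed TPM was higher in females (107205 to 136731 against 79898 to 106185 TPM in B6). The part of these markers in the result was not tested. In whole tissue, fewer cells of a type and less RNA per cell cannot be told apart.

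The number of members lower in females depended on the scaling, and the direction did not. With upper-quartile factors the medians were -0.16 in B6 and -0.10 in C3, and 39 and 24 members were lower at an adjusted p under 0.05. By that rule 12.1% and 13.8% of all genes were lower. With a gene length offset the medians were -0.15 and -0.11, and 42 and 28 members were lower, against 19.6% and 22.0% of all genes. In limma on log2(TPM + 1) 29 members were lower and 2 higher in B6, and 11 were lower and 4 higher in C3. Lower by the same rule were 8.71% of all genes in B6 and 9.7% in C3. The members' medians were -0.11 and -0.05, while the median of all genes stood at 0.08 and 0.09. With a pseudocount of 0.1 in place of 1, that median moved to 0.11 and 0.12. Measured from the median of all genes, the members' median was between -0.23 and -0.14 in B6 and between -0.18 and -0.11 in C3 over these scalings, RLE size factors and a gene length offset.

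The promoters of the members were examined for sequence motifs known from OXPHOS genes, because these genes moved together. RefSeq promoters (GRCm38.p6, from 250 bases before to 50 bases after a start site) were matched for 73 of the 89 members. The motif of Nrf1, made of GCGC, any 2 bases and GCGC, which reads the same on both strands, was found in 21 of the 73 (28.8%), against 7.0% of 27025 genes. Over tested genes with a promoter it was in 20 of 69 members and in 14.3% of all. The windows below are shown for members described above that were lower in females of both strains, with the motif in capitals and the strand of the gene given in order: Ndufaf4 at chr4:24897960-24897989 (plus), Atp5g3 at chr2:73911295-73911324 (minus), Ndufa8 at chr2:36049349-36049378 (minus), Ndufs6 at chr13:73328479-73328508 (minus) and Sdha at chr13:74350231-74350260 (minus).
Ndufaf4: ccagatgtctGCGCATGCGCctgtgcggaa
Atp5g3: gagccgcaccGCGCTTGCGCgcccagcccc
Ndufa8: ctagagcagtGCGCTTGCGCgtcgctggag
Ndufs6: cgactgctgtGCGCCTGCGCcggcacttgg
Sdha: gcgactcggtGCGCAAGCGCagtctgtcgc

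The first motif base lies at -113 from the start site in Ndufaf4, at 12 in Atp5g3, at -30 in Ndufa8, at -16 in Ndufs6 and at -10 in Sdha. The 20 tested members with the motif had a median sex difference of -0.24 in B6 and -0.17 in C3. The 49 without it had -0.21 and -0.16, so members with and without the motif had similar medians. A motif of ETS factors such as Gabpa, CCGGAAG on either strand, was present in 23.3% of the 73 promoters and 9.93% of all genes, but over tested genes the shares were 24.6% of members and 19.0% of all. The motif of Yy1, AANATGGCG on either strand, was present in 13.7% and 2.76%, and over tested genes in 14.5% and 5.59%. A match is a run of letters and not a measured binding site.

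The strains were compared within each sex. Read pairs of both strains were aligned to mm9, and the part of sequence variants between the strains in their differences was not tested. In females, 14 of the 82 members were higher in C3 than in B6 and 7 were lower at an adjusted p under 0.05, against 17.7% and 15.3% of all genes. In males 7 were higher and 12 lower, against 17.0% and 17.5% of all genes. The members' medians were 0.04 in females and -0.02 in males, and both medians changed sign with the scaling. On log2(TPM + 1) 6 members were higher and 15 lower in females, and 3 were higher and 19 lower in males. The members' medians were then -0.03 and -0.08, and 20.7% and 21.5% of all genes were lower. The gene length offset gave 19 higher and 7 lower in females and 12 higher and 9 lower in males. With that offset the members' medians were 0.05 and 0.02, and 15.7% and 17.2% of all genes were lower. At the study's thresholds Ndufa12 was higher and Ndufaf6 was lower in C3, in both sexes. At these thresholds 9.4% of all genes were called in females and 9.64% in males. At an adjusted p under 0.05 in both sexes, 6 members were higher in C3 (Atp5f1, Atp5g1, Atp5o, Ndufa12, Ndufb8 and Sdhd). By the same rule 6 of the 82 were lower (Cox7a2l, Ndufa3, Ndufa4l2, Ndufa6, Ndufaf6 and Sdhc). That is below the 10.6% of all genes that were lower in both sexes. The share of all genes higher in both sexes was not counted.

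**Figure D3:**
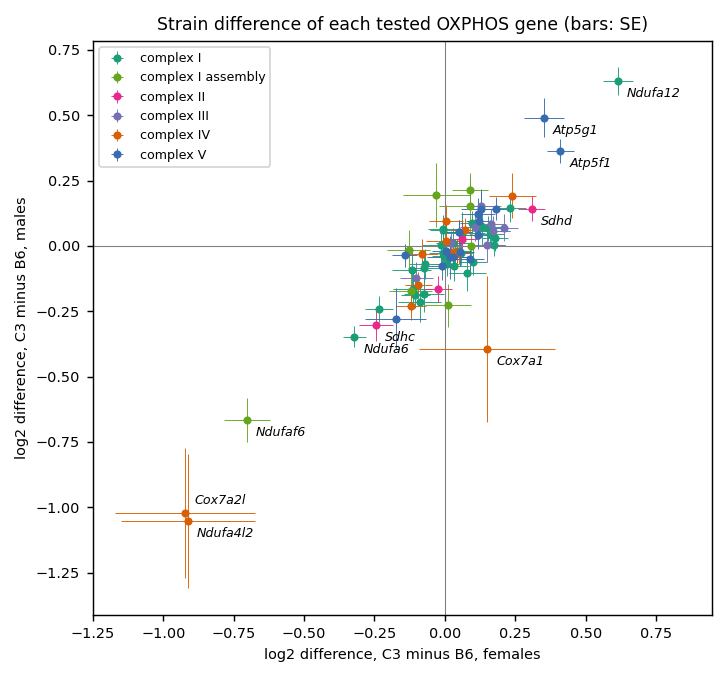
Log2 difference between C3 and B6 in females (x axis) and in males (y axis) for each of the 82 tested OXPHOS genes, coloured by complex, with SEs as bars. Most lie near 0, Ndufa12, Atp5f1 and Atp5g1 lie at the upper right, and Ndufaf6, Cox7a2l and Ndufa4l2 lie at the lower left.

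Ndufa12 (mm9 chr10:93661754-93683693, plus strand), an accessory subunit of complex I placed late in its assembly, was the member with the strongest strain call. In B6 females its CPM was 37.0, 37.8, 63.7, 64.1 and 69.6, and in C3 females it was 59.3, 60.8, 91.0, 99.6 and 102. In B6 males it was 39.3, 39.4, 73.8, 79.4 and 80.9, and in C3 males 66.6, 101, 115, 116 and 123. The low values of each group were those of pool 3, so the groups overlapped, but in each pool every C3 library was above every B6 library of the same sex. The difference was 0.61 ± 0.05 in females (adjusted p = 4.40e-08) and 0.63 ± 0.05 in males (adjusted p = 3.21e-08), an increase of 53.0% and 54.9%. The within-pool differences of Ndufa12 lay between 0.51 and 0.76.

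Ndufaf6 (mm9 chr4:10978195-11003352, minus strand), an assembly factor needed for the early part of complex I, had the opposite strain difference. It stood at 6.02, 6.61, 7.32, 9.87 and 10.5 CPM in B6 females and at 3.39, 3.87, 4.96, 5.96 and 6.69 CPM in C3 females. B6 males had 6.76, 7.30, 7.73, 10.5 and 11.0 CPM and C3 males 4.08, 4.61, 4.64, 4.75 and 7.25 CPM. Here pool 3 was the highest in each group. The difference was -0.70 ± 0.08 in females (adjusted p = 1.93e-06) and -0.67 ± 0.08 in males (adjusted p = 4.76e-06), and within pools it lay between -0.86 and -0.41. In pools 1 and 2 alone the difference of Ndufaf6 was -0.73 in females and -0.69 in males but was no longer called (adjusted p = 0.00189 and 0.00125). The plot of CPM by library shows these genes beside 4 others.

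**Figure D4:**
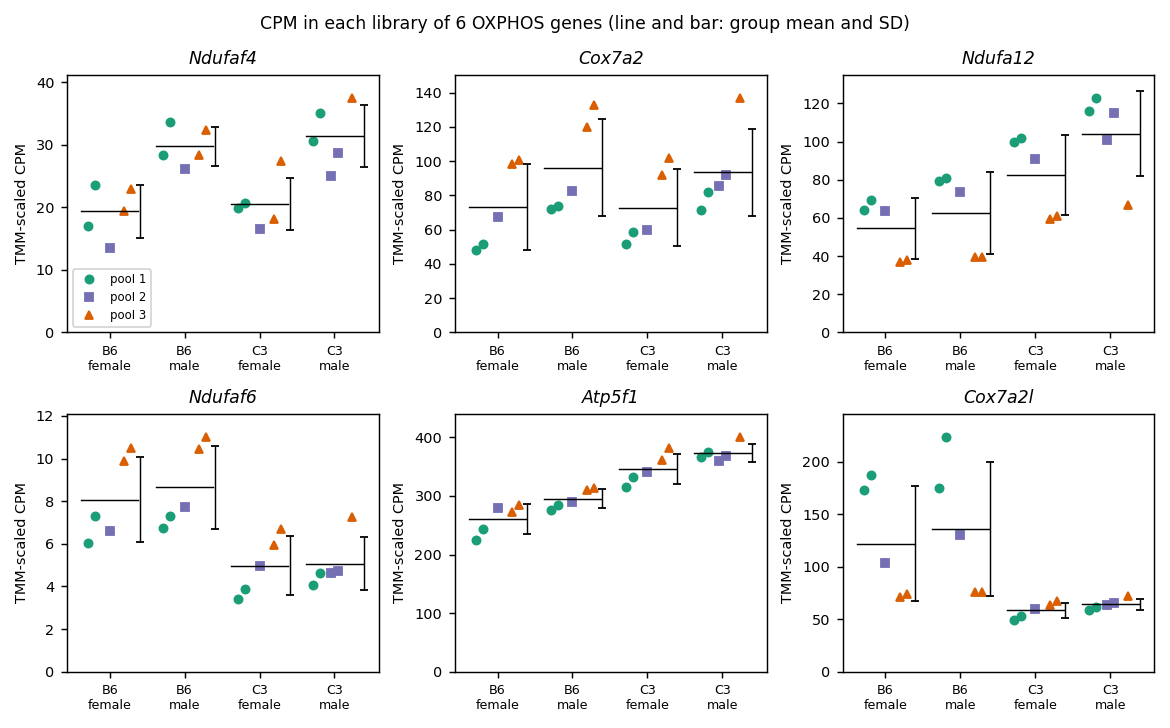
TMM-scaled CPM (y axes, each from 0) of Ndufaf4, Cox7a2, Ndufa12, Ndufaf6, Atp5f1 and Cox7a2l in each library of the 4 groups (x axes), with colour and shape for the pool and the group mean and SD in black. Ndufaf4 is lower in females, Ndufa12 and Atp5f1 are higher in C3, Ndufaf6 is lower in C3, and Cox7a2l parts the strains widely in pool 1 and little in pool 3.

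Other strain differences were smaller. Atp5f1, which encodes subunit b of the ATP synthase stalk, was at 261 ± 25.4 CPM in B6 females and 347 ± 25.5 CPM in C3 females (SD, n = 5), with no overlap. In males it was at 295 ± 16.2 and 374 ± 15.6 CPM (SD, n = 5), again with no overlap. The differences were 0.41 ± 0.05 (adjusted p = 1.55e-06) and 0.36 ± 0.05 (adjusted p = 8.28e-06). Ndufa6, a complex I subunit of the matrix arm, was lower in C3, at 84.0 ± 1.81 against 105 ± 3.19 CPM in females and 93.4 ± 4.19 against 118 ± 6.52 CPM in males (SD, n = 5). Its differences were -0.32 ± 0.04 (adjusted p = 4.41e-06) and -0.35 ± 0.04 (adjusted p = 1.87e-06), without overlap in either sex. Atp5g1 was higher in C3 by 0.35 ± 0.07 in females (adjusted p = 0.000993) and 0.49 ± 0.07 in males (adjusted p = 4.43e-05). Copies elsewhere in mm9 were found for Atp5f1 (98.8% identity over 803 of 1604 bases) and Atp5g1 (99.3% over 537 of 691). A copy was also found for Atp5o (97.2% over 712 of 838). The part of these copies in the strain differences was not tested. The 2 membrane anchors of complex II went apart, with Sdhd higher in C3 (0.31 and 0.14) and Sdhc lower (-0.24 and -0.30).

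Groups without overlap were few: 4 members in females and 5 in males, where 12.8% and 15.1% of all genes had none. Ndufa4l2, a paralogue of Ndufa4 with few counts (11 to 62 per library), was lower in C3. Its CPM was 1.18 ± 0.381 in B6 females against 0.613 ± 0.105 in C3 females, and 1.02 ± 0.206 in B6 males against 0.521 ± 0.20 in C3 males (SD, n = 5). The differences were -0.91 ± 0.24 (adjusted p = 0.00613) and -1.05 ± 0.26 (adjusted p = 0.00372), while Ndufa4 itself had 0.03 and -0.02.

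Cox7a2l, whose protein has been linked to supercomplexes of complexes III and IV, had a large strain difference in RNA that depended on the pool. The protein and its function in either strain were not measured. In pool 1 the B6 libraries held 173 and 187 CPM in females and 175 and 223 CPM in males, and the C3 libraries held 49.7 and 53.1 CPM in females and 59.0 and 61.2 CPM in males. In pool 3 the B6 libraries were at 70.9, 74.2, 75.9 and 76.0 CPM, and the C3 libraries were at 63.3, 67.4 and 72.2 CPM. All B6 values of pool 3 were below those of pool 1, and all C3 values of pool 3 were above those of pool 1. Over all pools the difference was -0.92 ± 0.25 in females (adjusted p = 0.00761) and -1.02 ± 0.25 in males (adjusted p = 0.00362). Within pools 1, 2 and 3 it was -1.81, -0.80 and -0.15 in females and -1.72, -1.02 and -0.07 in males. The change of the strain difference in pool 3 against pools 1 and 2, tested after the data were seen, was 1.24 ± 0.09 (adjusted p = 2.6e-06). Cox7a2l was the only member with an adjusted p under 0.05 in that test, in which 0.139% of all genes passed. A copy of its transcript with 97.7% identity over 825 of 1147 bases lies on mm9 chr12:25322858-25323677, and its part in the result was not tested.

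The sequencing pools differed in the OXPHOS genes by more than the sexes or the strains did. Against the mean of pools 1 and 2, 35 of 82 members were higher in pool 3 and 5 were lower at the study's thresholds, where 14.6% of all genes were called in either direction. At an adjusted p under 0.05, 52 were higher and 15 lower, against 27.8% and 27.1% of all genes. The members' median was 0.37, with that of all genes at -0.00. With an offset for gene length 31 members were called in place of 40. At an adjusted p under 0.05 there were then 46 higher and 25 lower, and 27.0% of all genes were lower. Pool 2 also stood above pool 1, with a median of 0.18, 49 members higher and 3 lower at an adjusted p under 0.05, against 12.6% and 10.9% of all genes. Since each group had 1 or 2 mice in every pool, pool and group could be fitted together.

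**Figure D5:**
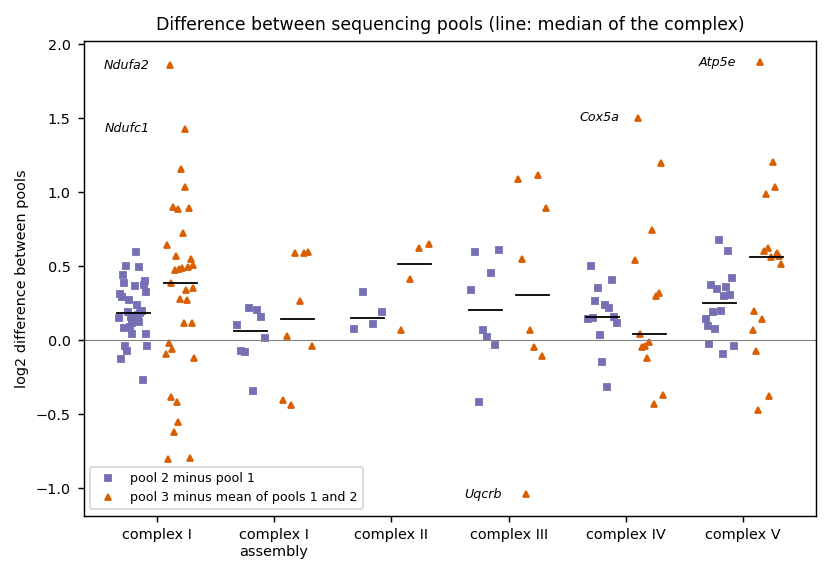
Log2 difference between sequencing pools (y axis) of each tested OXPHOS gene by complex (x axis), as pool 2 minus pool 1 (squares) and pool 3 minus the mean of pools 1 and 2 (triangles), with the median of each complex as a line. Complex V has a median of 0.56 and complex IV of 0.04 for pool 3, and single genes reach from -1.04 for Uqcrb to 1.88 for Atp5e.

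Pool differences ran from -1.04 to 1.88 among the members. Atp5e, the epsilon subunit of ATP synthase, had a lowest, median and highest CPM of 19.3, 22.6 and 28.4 in the 8 libraries of pool 1. In the 5 libraries of pool 2 these were 24.3, 27.6 and 28.3, and in the 7 of pool 3 they were 77.9, 86.9 and 102. The difference of Atp5e between pool 3 and the others was 1.88 ± 0.04, or 3.68-fold. Ndufa2, a complex I accessory subunit, was at 11.1 to 15.7 CPM in pool 1 and at 50.4 to 59.9 CPM in pool 3, a difference of 1.86 ± 0.04. Cox5a was at 24.4 to 34.1 CPM in pool 1 and 76.0 to 111 CPM in pool 3, and Ndufc1 differed by 1.43. In the other direction Uqcrb was at 255 to 359 CPM in pool 1 and 107 to 133 CPM in pool 3, a difference of -1.04 ± 0.05. Ndufa12 and Ndufs6 were lower in pool 3 by -0.80 each, Ndufa8 by -0.62 and Ndufb3 by -0.55. For these genes pool 3 did not overlap pool 1, apart from Ndufa12 and Ndufb3.

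By complex, the median difference of pool 3 was 0.39 in complex I, 0.15 in its assembly factors, 0.52 in complex II, 0.31 in complex III, 0.04 in complex IV and 0.56 in complex V. The median relative length of the members, taken from counts and TPM, was 0.26 of that of the median tested gene. Across genes, which are not independent replicates, the difference of pool 3 had a Spearman rho with relative length of -0.15 over the members and -0.18 over all genes. The 1352 other genes shorter than 0.4 of the median gene had a median of 0.20. Cytosolic ribosomal protein genes had a median of 0.49 and citric acid cycle genes of -0.06. Near-identical copies of the transcript elsewhere in mm9 (at least 95% identity over at least 50% of its length) were found for 17 of 86 members with a transcript, with 3 for Uqcrb and 10 for Atp5l. Counts of such genes are uncertain where pairs mapped to several places were dropped. The 16 tested members with copies had a median of 0.09 in pool 3 and the 63 without had 0.41, while the medians of the sex difference were alike (-0.21 and -0.23 in B6). The part of length and copies in the pool difference was not tested.

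The members varied together between mice. After group means were removed, the median Pearson correlation of log2 CPM between pairs of members over the 20 libraries was 0.46. With pool removed as well it was 0.26, and 78.7% of pairs were positive. These correlations describe libraries that also share depth and scaling.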

How the data were processed

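Liver RNA of 20 mice (4 groups of 5) was analysed from 2 deposited tables. According to the study's methods and processing notes, the authors trimmed adapters with cutadapt 1.9.1, aligned read pairs to mm9 with STAR 2.5.1b and made the deposited gene counts with featureCounts of Subread 1.5.0-p1, by strand, leaving out pairs with several alignments or several genes. The authors also deposited TPM values per gene, scaled by gene length and library. How that length was defined is not given in the sources used here. The headers of the symbol and identifier columns were exchanged, as every entry of the second column was a number, and symbols were read accordingly. Depth ran from 27370921 to 46835745 counts per library, so counts under about 10 per library carry large counting error.

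Counts were fitted in R 4.3.3 with edgeR 4.0.16 (TMM factors, filterByExpr, quasi-likelihood test, group plus pool, all 20 libraries), and p-values were Benjamini-Hochberg adjusted over 13704 genes. CPM values are TMM-scaled. Errors are SE of a log2 difference or SD of CPM (n = 5). The labels number the mice of a group as separate samples. In counts simulated for females against males in B6, 123 of 200 changed genes and 0 others of the 13704 were called. Alternatives used DESeq2 1.42.0, limma 3.58.1 on log2(TPM + 1) and log2(TPM + 0.1), RLE and upper-quartile factors, no filter, a gene length offset, a replicate block, other thresholds, no pool term and left-out libraries or pools. The comparison of pool 2 with pool 1 and the tests of sex and strain differences between pools were added after the data were seen. Members, lists and named genes were chosen with earlier results of these data known. Named were the members called in a comparison, the 5 largest differences each way at an adjusted p under 0.05, core subunits, isoform sets, Ndufaf genes, the 5 extremes of pool 3 and the TPM extremes of each complex. Ndufa3, Ndufa7, Atp5l and Atp5o fall outside this rule and were named after their values were seen. The values of 1 member are not reported here singly, though counts and medians over the members include it.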

Additional observations from a re-analysis of the deposited data

Results flagged for a closer look

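In 6 of the 88 groups of 5 libraries examined (22 measures in 4 groups: the CPM of named genes and the summed TPM of the members), 1 library lay far from the other 4, where chance flags about 1 in 20 groups. All 6 were the same library, C3 male 4, the only C3 male of pool 3. Its CPM was 252.1 for Atp5g3 (149 to 167 in the other 4 C3 males), 106.0 for Cox5a (30.8 to 46.4) and 7.246 for Ndufaf6 (4.08 to 4.75). It was 140.8 for Sdhc (80.7 to 86.9), 208.4 for Sdhd (121 to 139) and 75.83 for Uqcr10 (33.0 to 41.5). These genes were also higher in the pool 3 libraries of the other groups.

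The strain difference of Cox7a2l (C3 minus B6) was higher by 1.2358 on the log2 scale in pool 3 than in pools 1 and 2, by edgeR's test of that difference.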

How the results depend on the processing

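Directions of the members' medians between the sexes held under every alternative, while counts of calls moved. At the study's thresholds 1 member was called between the sexes in B6 and 2 in C3, and 2 between the strains in each sex. An adjusted p under 0.05 with no fold limit gave 65 and 51 between the sexes, 21 in females and 19 in males between the strains, and 67 of 82 for pool 3 (40 at the study's thresholds). A test against the fold limit itself (glmTreat) gave 0, 0, 0 and 0, and 21 for pool 3. Without a pool term each of the 4 counts was 0. With pools 1 and 2 only, both sex counts were 0. On log2(TPM + 1) and log2(TPM + 0.1) the sex counts were 0 in B6 and 1 in C3. Fitting only the groups compared gave 0 in B6. The gene length offset and the upper-quartile factors gave 1 each in C3. Pool 2 against pool 1, compared after the data were seen, gave 7. At an adjusted p under 0.05, 63 members were lower in B6 females and 48 in C3 females. These became 28 and 11 on log2(TPM + 0.1), against 8.67% and 9.88% of all genes. On log2(TPM + 1) they became 29 and 11, against 8.71% and 9.7% of all genes. Without a pool term 9 and 6 of the 82 were lower, against 6.52% and 7.47%, so C3 stood near the share of all genes. In pools 1 and 2 the counts were 31 and 23, against 9.06% and 13.8% of all genes. With upper-quartile factors they were 39 and 24, against 12.1% and 13.8%. The length offset gave 28 in C3, against 22.0% of all genes. Between strains 21 and 19 members became 6 and 6 without a pool term and 11 and 11 in pools 1 and 2. With 1 library left out, calls between the sexes numbered 0 to 2 in B6 and 1 to 2 in C3, between the strains from 2 to 2 in females and 2 to 3 in males, and for pool 3 from 38 to 43. The B6 count was 0 without B6 female 4 or B6 male 5 and 2 without B6 female 2, B6 female 3 or B6 male 4. Members lower at an adjusted p under 0.05 then numbered 54 to 67 in B6 and 39 to 50 in C3, those differing between strains from 17 to 22 and 15 to 20, and the sex medians lay between -0.26 and -0.20 in B6 and between -0.17 and -0.15 in C3. The cause of these shifts was not tested, and leaving out pool 3 also left fewer libraries. With group means removed, the mean correlation of same-numbered samples was -0.19, -0.24, 0.22 and 0.18 in the 4 comparisons. With pool removed as well it was 0.10, -0.01, 0.06 and 0.01, so replicate numbers were not taken to pair the mice. A replicate block gave 1 call between the sexes in C3, with 61 and 45 members lower in B6 and C3 females at an adjusted p under 0.05. Depth limited Cox7a1 and Ndufa4l2, with at most 33 and 62 counts in a library.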

Other observations

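Other gene lists were compared between the sexes in the same fits. At an adjusted p under 0.05, 18.4% of all genes were lower in B6 females and 16.2% higher. In C3 females 19.9% of all genes were lower and 20.1% higher. The 3 X-linked subunit genes that the symbols also name had a median log2 difference of -0.18 in B6 and -0.17 in C3, with 2 lower at an adjusted p under 0.05 in B6 and 1 in C3. Erythroid markers were represented by Alas2, the erythroid enzyme of heme synthesis, which was lower in females (-2.76 in B6 and -3.28 in C3), while the other 6 loci were at 0 in all libraries. Of 5 lymphocyte markers 1 was higher in B6 females and 4 in C3 females, and of 5 cholangiocyte markers 1 was lower in each strain and 2 were higher in C3 females.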
